A study of Mus musculus with 31 samples.

Results

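The genes described here act on lipids inside the lysosome, the acidic compartment in which cells digest membranes, lipoproteins and debris, or carry the products out of it. The set was named by symbol and held 9 of the 18147 genes that the arrays covered with at least 1 uniquely annotated probe set: Asah1, Galc, Smpd1, Lipa, Pla2g15, Psap, Gm2a, Npc1 and Npc2. Where a gene had several probe sets, the one of highest mean stood for it. The filter on low values asked for a log2 value above 6.49 on 3 or more arrays. It was met by 8 of the 9 genes, which were tested, and not by Galc.

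RNA was measured on 31 arrays from the left lobe of the liver of female mice, aged 8 to 10 weeks when dosing began, from 4 inbred strains: NZW/LacJ, WSB/EiJ, MA/MyJ and SM/J. Treated animals received PF-04287881, known here by its code name, at 600 mg/kg by daily gavage for 7 days, vehicle animals received sterile water, and livers were taken 24 hours after the last dose. There were 4 animals per strain and treatment except 3 treated WSB/EiJ animals, because 1 died from a gavage error. MA/MyJ and NZW/LacJ were coded by the submitters for vacuolation of Kupffer cells, the resident macrophages of the liver, and so as phospholipidosis responders, and NZW/LacJ also for single cell necrosis. The codes belong to strains and not to single animals, so that a difference between coded groups is a difference between the strains in them. Nothing in the labels gives a litter, cage or scan batch, and the p-values measure the spread between the animals of a group.

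Phospholipidosis is the build-up of phospholipid in lysosomes as layered bodies, and many cationic amphiphilic drugs cause it by collecting in lysosomes and hindering lipid breakdown there. Acid ceramidase (Asah1), galactosylceramidase (Galc) and acid sphingomyelinase (Smpd1) cut sphingolipids, lysosomal acid lipase (Lipa) cuts cholesteryl esters and triglycerides, and lysosomal phospholipase A2 (Pla2g15) cuts phospholipids. Prosaposin (Psap) is cut into small proteins, and the GM2 activator (Gm2a) is itself a small protein. Such proteins present membrane lipids to certain lysosomal enzymes. Npc2 hands free cholesterol to the membrane protein Npc1, which exports it. In the liver these genes are active in hepatocytes and also in Kupffer cells.

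The windows of 250 bases ahead of the annotated start of 3 of these genes are shown, because Npc2 rose with the drug in each strain, Pla2g15 moved by strain and Smpd1 was called in WSB/EiJ. They are taken from RefSeq on GRCm38.p6, are read 5′ to 3′ on the strand of the gene, and lie at chr12:84773113-84773362 (minus strand) for Npc2, chr8:106150104-106150353 (plus strand) for Pla2g15 and chr7:105554110-105554359 (plus strand) for Smpd1. Capitals mark the GC box GGGCGG and the CCAAT box, each searched on both strands, with no overlap between them in these windows.
Npc2: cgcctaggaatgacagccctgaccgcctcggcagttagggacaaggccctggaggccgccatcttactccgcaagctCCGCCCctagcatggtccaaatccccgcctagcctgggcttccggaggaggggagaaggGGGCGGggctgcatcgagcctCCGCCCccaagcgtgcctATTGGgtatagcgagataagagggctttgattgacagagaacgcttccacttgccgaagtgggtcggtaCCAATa
Pla2g15: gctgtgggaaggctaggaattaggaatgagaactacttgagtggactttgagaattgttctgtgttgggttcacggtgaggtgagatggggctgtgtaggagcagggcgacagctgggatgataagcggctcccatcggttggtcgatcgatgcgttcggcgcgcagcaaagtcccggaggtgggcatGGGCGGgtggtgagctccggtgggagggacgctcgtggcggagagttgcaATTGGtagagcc
Smpd1: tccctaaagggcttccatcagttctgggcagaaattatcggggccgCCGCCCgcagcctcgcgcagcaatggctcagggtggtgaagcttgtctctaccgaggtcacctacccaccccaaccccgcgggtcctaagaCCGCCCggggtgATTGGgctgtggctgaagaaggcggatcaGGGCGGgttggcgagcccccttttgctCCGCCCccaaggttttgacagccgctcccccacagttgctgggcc

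The Npc2 window held 3 GC boxes and 2 CCAAT boxes, that of Pla2g15 1 of each, and that of Smpd1 4 GC boxes and 1 CCAAT box. Across the 7 genes of the set with a window in the table, 5 had a GC box and 4 had a CCAAT box, beside 32.7% and 33.8% of all 32851 windows of this length. The sequence CACGTG, the core of the E-box that TFEB, a regulator of lysosomal genes, is known to bind, was in the window of 0 of these 7 genes and in 6.02% of all windows. These matches describe the letters in the windows and no binding was measured.

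The array titled as the third treated WSB/EiJ animal stood apart. On a scale built from the 100 probe sets that best marked each strain, with 0 for other strains and 1 for the strain's own mean, it lay at 0.00808 for WSB/EiJ and at 0.995 for NZW/LacJ, where the NZW/LacJ arrays themselves lay between 0.792 and 1.02. On the scale of the drug effect in NZW/LacJ it lay at -0.0126, within the NZW/LacJ vehicle arrays (-0.0438 to 0.0343) and below the treated ones (0.859 to 1.16). Its values for 4 of the 9 genes fell within the range of the WSB/EiJ vehicle animals, and for 1 of them, Npc1, between those of the other treated WSB/EiJ animals. It is kept in the values below as labelled, and WSB/EiJ differences, contrasts across strains and counts are also given without it. The array of the fourth WSB/EiJ vehicle animal lay at 0.719 on the WSB/EiJ scale.

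**Figure D1:**
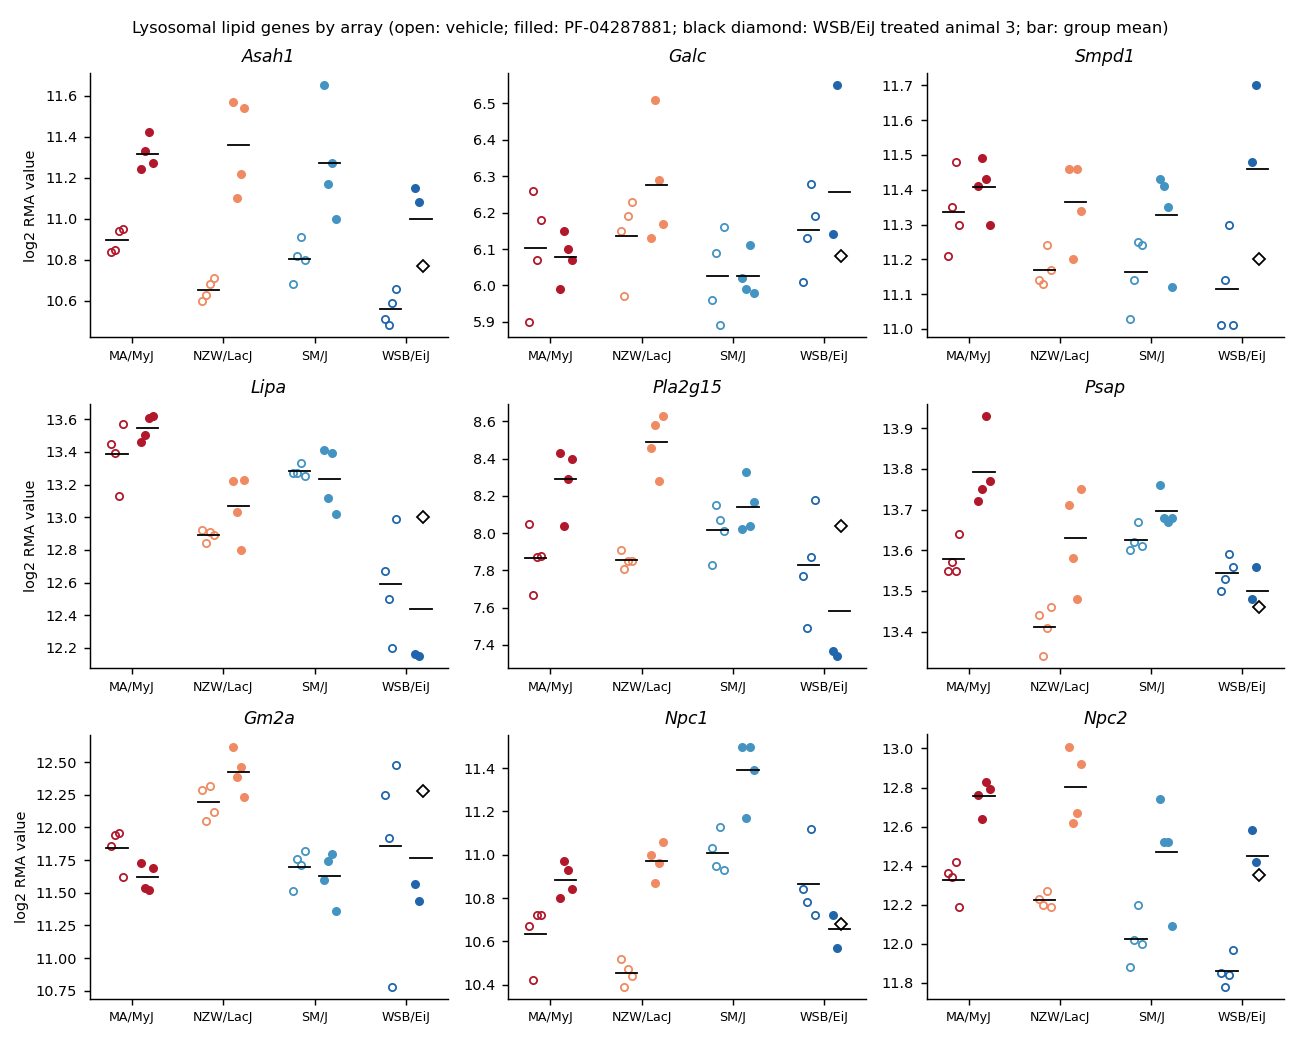
The deposited log2 value (vertical axis) of each of the 9 genes on each of the 31 arrays, by strain, with open points for vehicle animals, filled points for treated animals, a black diamond for the third treated WSB/EiJ animal and a bar for each group mean. For Asah1 the treated values lay above the vehicle values in all 4 strains, while Galc stayed between 5.89 and 6.55.

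Averaged over the strains, 6 of the 8 tested genes rose with the drug and 0 fell (0 also at an unadjusted p under 0.05), where 13.3% of all 12890 tested genes rose and 8.92% fell. Asah1 and Npc2 rose most, each by 0.51 on the log2 scale, followed by Pla2g15 (0.24), Npc1 (0.23), Smpd1 (0.19) and Psap (0.11). In whole liver, more cells of a type and more RNA per cell cannot be told apart. The median difference of the 8 genes was 0.21, beside 0 over all tested genes. By strain it was 0.37 in NZW/LacJ, 0.23 in MA/MyJ and 0.14 in SM/J, beside 0.02, 0.01 and 0 over all genes. In WSB/EiJ it was -0.07, or -0.12 without the third treated array, beside 0.02 over all genes. Averaged over strains, Lipa (0.04 ± 0.08) and Gm2a (-0.04 ± 0.11) did not pass, at limma adjusted p of 0.789 and 0.84. Calls throughout are two-sided limma tests with Benjamini-Hochberg adjustment over all 12890 genes at 0.05, and ± gives the standard error of the fit. The mean of all probe sets of each gene called 4 of the 8, and ended the calls of Psap (0.05, adjusted p 0.258) and Pla2g15 (0.11, 0.233). Without the third treated WSB/EiJ array 6 of 8 again rose and 0 fell, where 18.4% of all genes rose and 14.2% fell. The values were then 0.54 for Asah1, 0.52 for Npc2, 0.23 for Smpd1 and for Npc1, 0.18 for Pla2g15 and 0.12 for Psap, beside -0.03 for Lipa and -0.10 for Gm2a, which did not pass (adjusted p 0.731 and 0.509).

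Within single strains, 3 to 5 of the 8 genes rose. MA/MyJ had 3 (Asah1, Psap and Npc2), where 3.17% of all genes rose. NZW/LacJ had 5 (Asah1, Pla2g15, Psap, Npc1 and Npc2), where 15.1% of all genes rose. SM/J had 3 (Asah1, Npc1 and Npc2; 1.6%) and WSB/EiJ had 3 (Asah1, Smpd1 and Npc2; 6.91%). With all arrays at equal weight in the limma fit 0 of the 8 fell in any strain, where 12.4% of all genes fell in WSB/EiJ, 6.4% in NZW/LacJ, 0.978% in MA/MyJ and 0.993% in SM/J. At an unadjusted p under 0.05, 1 was lower in a strain, Npc1 in WSB/EiJ. With arrays weighted by limma, 6 of the 8 were called in WSB/EiJ, of which 3 fell: Gm2a (-0.56, adjusted p 0.0198), Lipa (-0.44, 0.0142) and Pla2g15 (-0.39, 0.0425). The weighted fit called 4209 of all 12890 genes in WSB/EiJ. It gave low weights to the array that stood apart (0.0822) and to WSB/EiJ vehicle animal 3 (0.232), so it is not independent of leaving arrays out. Without the array that stood apart, 4 rose in MA/MyJ, with Pla2g15 added (5.21% of all genes), 5 in NZW/LacJ (18.3%), 3 in WSB/EiJ (13.8%) and 3 in SM/J (2.66%). Lipa and Pla2g15 then fell in WSB/EiJ (18.6% of all genes did), and 0 fell in MA/MyJ (2.09%), NZW/LacJ (8.35%) or SM/J (1.99%). With WSB/EiJ vehicle animal 4 left out as well, Pla2g15 still fell there (-0.35, limma adjusted p 0.0437) and Lipa did not pass. That fit called 3993 of all 12890 genes in WSB/EiJ. Asah1 and Npc2 rose and passed in each of the 4 strains, where 0.147% of all tested genes did so, or 0.264% without the array that stood apart. The mean of the probe sets of each gene ended the Npc2 call in SM/J (0.32, adjusted p 0.0579).

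These counts depended on single arrays. In MA/MyJ the count became 1 without vehicle animal 1, 2 or 3 or treated animal 2 or 4, and 0 without treated animal 3. In SM/J it became 1 without vehicle animal 1 and 0 without vehicle animal 4 or treated animal 1 or 3. In WSB/EiJ it became 1 without treated animal 1. The lowest count in NZW/LacJ was 4. Over all 12890 tested genes, the counts without 1 array ran from 279 to 941 in MA/MyJ and from 103 to 600 in SM/J. They ran from 1282 to 4180 in WSB/EiJ and from 2052 to 3436 in NZW/LacJ. Fitting the arrays of 1 strain alone, which estimates the spread from 7 or 8 arrays, called 0 of the 8 genes in SM/J and 0 in WSB/EiJ. That fit called 484 of all genes in SM/J and only 4 in WSB/EiJ, so the 0 in WSB/EiJ is not particular to this set.

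Counted without a test, every treated animal lay above every vehicle animal for 4 of the 8 genes in MA/MyJ (10.7% of all genes), 5 in NZW/LacJ (22%) and 3 in SM/J (6.48%). The count in WSB/EiJ was 2 (6.31%), or 3 without the array that stood apart (17.8%). Every treated animal lay below every vehicle animal for 0 genes in SM/J (7.15%), MA/MyJ (6.09%) and NZW/LacJ (11.9%), and for 1 in WSB/EiJ, Npc1 (7.8%), or 3 without that array (20%).

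**Figure D2:**
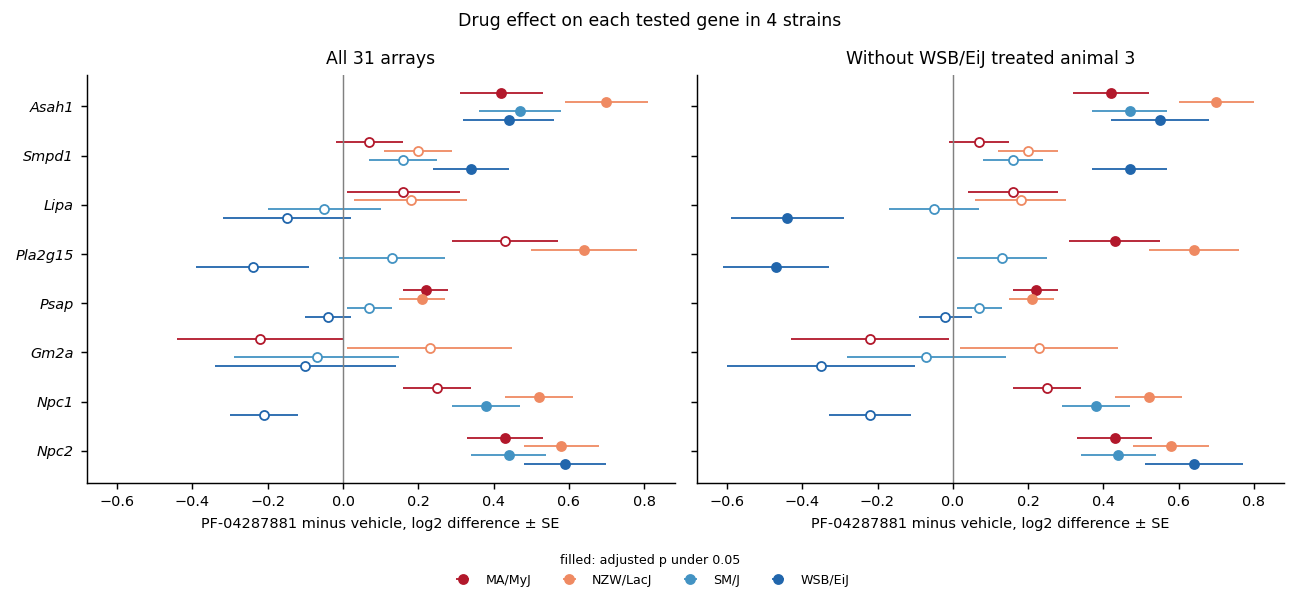
The drug effect on each of the 8 tested genes (horizontal axis, PF-04287881 minus vehicle in log2 units, with the standard error of the fit) in each strain, filled where the adjusted p was under 0.05, with all 31 arrays at left and without the third treated WSB/EiJ array at right. Asah1 and Npc2 lie to the right of 0 in all strains, and Npc1 and Pla2g15 lie to the left of 0 in WSB/EiJ only.

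Among the sphingolipid hydrolases, Asah1, which splits ceramide, rose in each strain. In MA/MyJ its values were 10.84, 10.85, 10.94 and 10.95 in the vehicle animals and 11.24, 11.33, 11.42 and 11.27 in the treated ones. In NZW/LacJ they were 10.6, 10.63, 10.68 and 10.71 against 11.57, 11.1, 11.22 and 11.54. Treated and vehicle animals did not overlap in either strain, and the treated NZW/LacJ animals were split between 11.1 to 11.22 and 11.54 to 11.57. In SM/J the values were 10.68, 10.82, 10.91 and 10.8 against 11.65, 11.17, 11.27 and 11, and in WSB/EiJ they were 10.51, 10.48, 10.59 and 10.66 against 11.15, 11.08 and 10.77. Every treated animal lay above every vehicle animal in both strains, in WSB/EiJ also without the array that stood apart. That array gave the lowest treated WSB/EiJ value, 10.77, where the NZW/LacJ vehicle animals were at 10.6 to 10.71.

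The Asah1 difference was largest in NZW/LacJ, at 0.70 ± 0.11 (limma adjusted p 5.42e-05). It was 0.47 ± 0.11 in SM/J (0.0193), 0.44 ± 0.12 in WSB/EiJ (0.0106, or 0.55 and 0.00149 without the array that stood apart) and 0.42 ± 0.11 in MA/MyJ (0.0274). Their average was a 1.42-fold rise (adjusted p 5.17e-07). The strain-by-treatment F test, which asks whether the drug effect differs among the strains, gave an adjusted p of 0.44 for Asah1. The effect in MA/MyJ minus that in NZW/LacJ was -0.28 ± 0.16 (interval -0.6 to 0.04, adjusted p 0.31), so that these were not shown to differ. Leaving out 1 array at a time kept the NZW/LacJ and average calls. It ended the MA/MyJ call for 6 of the arrays (highest adjusted p 0.0962), the SM/J call for 4 (0.115 without the first treated SM/J animal) and the WSB/EiJ call for the first treated animal of that strain (0.37, adjusted p 0.0841).

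Smpd1, which cuts sphingomyelin, rose on average and in WSB/EiJ. Its WSB/EiJ values were 11.01, 11.14, 11.3 and 11.01 in the vehicle animals and 11.48, 11.7 and 11.2 in the treated ones. The treated animal at 11.2 was the array that stood apart and lay inside the vehicle range, and the other 2 lay above it. The difference was 0.34 ± 0.10 (limma adjusted p 0.0174), and 0.47 ± 0.10 (0.000815) without that array. Leaving out the second treated WSB/EiJ animal, the highest, gave 0.22 (adjusted p 0.153), and the call was also lost without the first treated or the first vehicle animal of that strain. The difference did not pass in NZW/LacJ (0.20 ± 0.09, adjusted p 0.136), SM/J (0.16 ± 0.09, 0.451) or MA/MyJ (0.07 ± 0.09, 0.757). The strains were not shown to differ in the Smpd1 effect (F test, adjusted p 0.455), and the average over the 3 strains other than WSB/EiJ was 0.14 (adjusted p 0.0546). A lower Smpd1 probe set, of mean 7.54, did not pass on average (0.13 ± 0.05, limma adjusted p 0.063) or in WSB/EiJ (0.25 ± 0.11, 0.0944). Without the array that stood apart it gave 0.30 in WSB/EiJ (0.0499). Its values were 0.21 in SM/J, 0.06 in MA/MyJ and -0.01 in NZW/LacJ. The probe set of Galc stayed below the filter, with group means from 6.03 to 6.27, and its average difference in a fit of all probe sets was 0.05 ± 0.05 (limma adjusted p 0.481).

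Pla2g15, the phospholipase that degrades the lipids stored in phospholipidosis, had a response that differed by strain. In NZW/LacJ the vehicle animals were at 7.91, 7.81, 7.85 and 7.85 and the treated ones at 8.46, 8.58, 8.28 and 8.63. In MA/MyJ the vehicle values of 8.05, 7.67, 7.87 and 7.88 met treated values of 8.43, 8.04, 8.29 and 8.4. The groups were fully apart in NZW/LacJ and overlapped in MA/MyJ by 1 treated animal at 8.04. In SM/J they were 7.83, 8.15, 8.07 and 8.01 against 8.02, 8.33, 8.04 and 8.17, and in WSB/EiJ 7.77, 7.49, 7.87 and 8.18 against 7.37, 7.34 and 8.04. The third treated WSB/EiJ value, 8.04, lay within the vehicle range, and the other 2 lay below all vehicle animals.

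The Pla2g15 difference was 0.64 ± 0.14 in NZW/LacJ, a 1.55-fold rise (limma adjusted p 0.00153), and 0.43 ± 0.14 in MA/MyJ (0.0782, or 0.0242 without the array that stood apart). It was 0.13 ± 0.14 in SM/J (0.752) and -0.24 ± 0.15 in WSB/EiJ (0.27), and without that array it fell by 0.47 in WSB/EiJ (0.012). The F test passed (adjusted p 0.0116). The effect exceeded that in WSB/EiJ by 0.88 ± 0.20 in NZW/LacJ (0.00707) and by 0.67 ± 0.20 in MA/MyJ (0.041), or by 1.11 ± 0.18 and 0.90 ± 0.18 without that array. A lower probe set of the same gene, of nearly the same mean value (7.98 beside 8.02), gave an average difference of -0.01 ± 0.07 (adjusted p 0.943). Its values were close to the first in WSB/EiJ (-0.20, or -0.41 and adjusted p 0.0267 without the array that stood apart) and lower in the others, with 0.37 in NZW/LacJ (0.05), 0.01 in MA/MyJ and -0.21 in SM/J. The mean of both gave an average of 0.11 (0.233). The average call of Pla2g15 thus rests on 1 of its 2 probe sets.

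Lipa, the acid lipase, passed in no strain with all arrays at equal weight. In WSB/EiJ its vehicle values were 12.67, 12.5, 12.2 and 12.99 and its treated values 12.16, 12.15 and 13. The array that stood apart carried the 13, the highest of the 7, and the other 2 treated animals lay below every vehicle animal. The difference was -0.15 ± 0.17 (limma adjusted p 0.563) with that array and fell by 0.44 (0.026) without it, when 2 treated animals remained. The fall did not pass when WSB/EiJ vehicle animal 4, which held the 12.99, was left out as well. In MA/MyJ the difference was 0.16 ± 0.15, in NZW/LacJ 0.18 ± 0.15 and in SM/J -0.05 ± 0.15. A lower Lipa probe set, of mean 9.63, gave an average of 0.1 ± 0.16 (limma adjusted p 0.699). It fell by 0.71 in WSB/EiJ without the array that stood apart (0.018), the direction of the set used. The probe set with the lowest mean, 5.77, gave an average difference of 0.70 ± 0.19 (adjusted p 0.00915), in disagreement with the set used. Its mean lay under the filter value of 6.49, which it exceeded on at least 3 arrays.

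Of the activator proteins, Psap passed in MA/MyJ and NZW/LacJ, and Gm2a in no strain. Psap was at 13.55, 13.57, 13.55 and 13.64 in MA/MyJ vehicle animals and at 13.72, 13.75, 13.93 and 13.77 in treated ones. In NZW/LacJ it was at 13.44, 13.34, 13.41 and 13.46 against 13.71, 13.58, 13.48 and 13.75. Both pairs of groups were apart, and the nearest animals in NZW/LacJ were at 13.46 and 13.48. The difference was 0.22 ± 0.06 in MA/MyJ (limma adjusted p 0.034) and 0.21 ± 0.06 in NZW/LacJ (0.00963), beside 0.07 ± 0.06 in SM/J (0.637) and -0.04 ± 0.06 in WSB/EiJ (0.671, or -0.02 and 0.841 without the array that stood apart). Both strain calls were lost with the mean of the Psap probe sets (0.17, adjusted p 0.145, in MA/MyJ and 0.13, 0.173, in NZW/LacJ) and when only the arrays of the strain were fitted (0.0868 and 0.0501). The MA/MyJ call was lost without any 1 of 6 arrays (0.17, adjusted p 0.153, without the third treated animal) and the NZW/LacJ call without the fourth treated animal (0.17, 0.0513). A lower Psap probe set gave an average of -0.01 ± 0.04 (adjusted p 0.922).

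Gm2a passed in no comparison of drug effects with all arrays at equal weight, whereas with array weights it passed in WSB/EiJ, as given above, in the contrast for necrosis (0.51, limma adjusted p 0.012) and by the F test (0.00597). Its WSB/EiJ vehicle values were 12.25, 11.92, 10.78 and 12.48 and its treated values 11.57, 11.44 and 12.28. The third vehicle animal, at 10.78, was the lowest of all 31 arrays. With it the WSB/EiJ difference was -0.10 ± 0.24 (limma adjusted p 0.828, or -0.35 and 0.31 without the treated array that stood apart), and without it Gm2a fell by 0.46 (0.0493) and had a larger effect in NZW/LacJ than in the other strains (0.48, 0.0486). In MA/MyJ the difference was -0.22 ± 0.22, in NZW/LacJ 0.23 ± 0.22 and in SM/J -0.07 ± 0.22. A lower Gm2a probe set, of mean 10.22, had the other sign in NZW/LacJ (-0.26 ± 0.3, limma adjusted p 0.584). It passed in no strain and gave an average of -0.25 ± 0.15 (0.246), with -0.51 in MA/MyJ, -0.19 in WSB/EiJ and -0.04 in SM/J.

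Of the cholesterol export pair, Npc2 rose in every strain and Npc1 in some. Npc2 was at 12.36, 12.34, 12.42 and 12.19 in MA/MyJ vehicle animals and at 12.76, 12.64, 12.83 and 12.79 in treated ones. In NZW/LacJ it was at 12.23, 12.2, 12.27 and 12.19 against 13.01, 12.62, 12.67 and 12.92. In both strains every treated animal exceeded every vehicle animal. In SM/J the values were 11.88, 12.02, 12.2 and 12 against 12.74, 12.52, 12.52 and 12.09, and in WSB/EiJ they were 11.85, 11.78, 11.84 and 11.97 against 12.58, 12.42 and 12.35. One treated SM/J animal, at 12.09, lay inside the vehicle range, and in WSB/EiJ the groups did not overlap.

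The Npc2 difference was 0.59 ± 0.11 in WSB/EiJ (limma adjusted p 0.000533, or 0.64 and 0.000318 without the array that stood apart), 0.58 ± 0.10 in NZW/LacJ (0.00021), 0.43 ± 0.10 in MA/MyJ (0.0162) and 0.44 ± 0.10 in SM/J (0.0174). The average was a 1.43-fold rise (1.79e-07). The strains were not shown to differ (F test, adjusted p 0.703), and the effect in MA/MyJ minus that in NZW/LacJ was -0.16 ± 0.15 (interval -0.46 to 0.14). A lower Npc2 probe set, of mean 11.18, gave an average of 0.55 ± 0.05 (1.15e-07) and passed in SM/J (0.5, limma adjusted p 0.0104). The MA/MyJ call was lost without treated animal 3 of that strain (0.40, adjusted p 0.0615) and the SM/J call without any 1 of 5 arrays (0.35, 0.105, without the first treated animal).

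Npc1, the membrane exporter, had the smallest p of these genes in the F test over strains with all arrays, and Pla2g15 had it without the array that stood apart (0.000281 beside 0.00117 for Npc1). In NZW/LacJ it was at 10.52, 10.39, 10.47 and 10.44 in vehicle animals and at 11, 10.87, 10.96 and 11.06 in treated ones. In SM/J it was at 11.03, 10.95, 11.13 and 10.93 against 11.5, 11.17, 11.5 and 11.39. Treated animals lay above all vehicle animals in both strains. In MA/MyJ it was at 10.67, 10.42, 10.72 and 10.72 against 10.8, 10.97, 10.93 and 10.84, and in WSB/EiJ at 10.84, 10.78, 11.12 and 10.72 against 10.72, 10.57 and 10.68. The MA/MyJ groups were also apart, with the treated animals above, whereas the treated WSB/EiJ animals lay below all vehicle animals, the nearest of the groups both rounding to 10.72.

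The Npc1 difference was 0.52 ± 0.09 in NZW/LacJ (limma adjusted p 0.000108), 0.38 ± 0.09 in SM/J (0.0156), 0.25 ± 0.09 in MA/MyJ (0.0931) and -0.21 ± 0.09 in WSB/EiJ (0.112). Without the array that stood apart the WSB/EiJ difference was -0.22 (0.113). The F test gave an adjusted p of 0.000866. The effect in WSB/EiJ was below that in NZW/LacJ by 0.73 ± 0.13 (0.000585), in SM/J by 0.59 ± 0.13 (0.00392) and in MA/MyJ by 0.47 ± 0.13 (0.0222), or by 0.74, 0.60 and 0.48 without that array. The SM/J call was lost without any 1 of 4 arrays (0.34, adjusted p 0.0732, without the first treated animal).

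By the F test, the drug effect differed among strains for 2 of the 8 genes, Npc1 and Pla2g15, where 19.4% of all genes passed that test. Psap (adjusted p 0.0648), Asah1 (0.44), Smpd1 (0.455), Lipa (0.556), Gm2a (0.68) and Npc2 (0.703) did not pass. Without the array that stood apart 3 passed, with Lipa added (adjusted p 0.047; 32.4% of all genes). Over the 6 pairs of strains, adjusted together, the effects of Pla2g15 and Npc1 differed in MA/MyJ against WSB/EiJ and NZW/LacJ against WSB/EiJ (10.2% and 17.8% of all genes differed), and that of Npc1 in SM/J against WSB/EiJ (5.9%). In limma 0 genes of the set passed for MA/MyJ against NZW/LacJ (4.72% of all genes, and 1 gene, Npc1, at an unadjusted p under 0.05), MA/MyJ against SM/J (1.63%, and 0 unadjusted) or NZW/LacJ against SM/J (6.34%, and 1 unadjusted, Pla2g15), so each called pair involved WSB/EiJ. Without the array that stood apart Pla2g15 also passed for NZW/LacJ against SM/J (0.51 ± 0.16, limma adjusted p 0.0355; 10.9% of all genes) and for SM/J against WSB/EiJ (0.60 ± 0.18, 0.0278; 16.2%). Lipa then passed for MA/MyJ against WSB/EiJ (0.60 ± 0.19, 0.0361; 21%) and for NZW/LacJ against WSB/EiJ (0.62 ± 0.19, 0.031; 27.3%), and Smpd1 for MA/MyJ against WSB/EiJ (-0.40 ± 0.13, 0.0394). Neither MA/MyJ against NZW/LacJ (8.25% of all genes) nor MA/MyJ against SM/J (3.64%) gained a call. With all arrays 5 gene and pair combinations passed. This became 3 without MA/MyJ vehicle animal 2 or WSB/EiJ treated animal 2, and 10 without WSB/EiJ treated animal 3. The count was 6 when WSB/EiJ vehicle animal 4 was left out together with the latter.

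The submitters' code for Kupffer cell vacuolation splits the strains into a coded pair (MA/MyJ, NZW/LacJ) and the other two. The mean effect in the coded pair was larger for 3 of the 8 genes and smaller for 0 (0 also at an unadjusted p under 0.05), where 12.5% of all genes had a larger and 4.48% a smaller effect. These were Pla2g15 (0.59 ± 0.14, limma adjusted p 0.00481), Npc1 (0.30 ± 0.09, 0.0186) and Psap (0.20 ± 0.06, 0.021). The Psap call was lost with the mean of its probe sets (0.19, 0.0544). Without the array that stood apart Lipa joined them (0.41 ± 0.13, 0.0197; 18% of all genes), and 0 had a smaller effect in the coded pair (8.25%). Asah1 (0.11 ± 0.11, interval -0.12 to 0.34) and Npc2 (-0.01 ± 0.11, interval -0.23 to 0.2) did not pass, nor did Lipa with all arrays (0.27 ± 0.16), Smpd1 (-0.12 ± 0.10) or Gm2a (0.09 ± 0.23). Without the array the called values were 0.70 for Pla2g15, 0.31 for Npc1 and 0.19 for Psap. For Npc1 the contrast set SM/J (0.38) and WSB/EiJ (-0.21) together although these 2 strains themselves differed. In the contrast for necrosis, NZW/LacJ against the other 3 strains, Pla2g15 (0.53 ± 0.16, 0.0239) and Npc1 (0.38 ± 0.10, 0.0109) passed, where 11.3% of all genes had a larger effect in NZW/LacJ, or 15.6% without the array that stood apart (then 0.61 for Pla2g15 and 0.38 for Npc1). Gm2a (0.36 ± 0.26), Asah1 (0.26 ± 0.13), Lipa (0.19 ± 0.18), Psap (0.13 ± 0.07), Npc2 (0.10 ± 0.12) and Smpd1 (0.01 ± 0.11) did not pass. The Pla2g15 call there was lost without the second vehicle, the second treated or the fourth treated NZW/LacJ animal (0.48, adjusted p 0.0629, without the last).

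**Figure D3:**
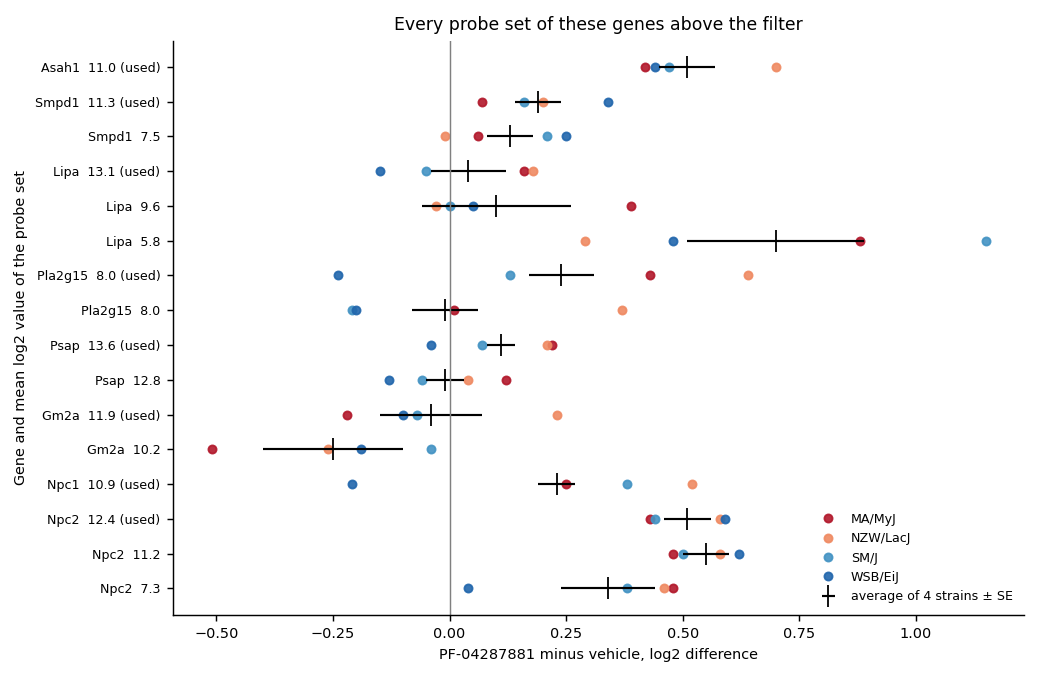
The drug effect (horizontal axis, PF-04287881 minus vehicle in log2 units) for each of the 16 probe sets of these genes that exceeded the filter, named by gene and mean value, with coloured points for the strains and a black tick with its standard error for their average. The Npc2 probe sets of mean 12.4 and 11.2 lie together near 0.5, whereas those of Pla2g15 and of Psap lie apart. The Npc2 probe set of mean 7.3 has an average of 0.34 and a WSB/EiJ value of 0.04.

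Vehicle levels differed among the strains for 5 of the 8 genes (limma F test), where 56.5% of all genes did, or 63% without the treated array that stood apart, which enters the shared spread. Without NZW/LacJ vehicle animal 2 the count was 3. By pairs of strains, 4 genes passed for MA/MyJ against WSB/EiJ (27.8% of all genes), 2 each for MA/MyJ against NZW/LacJ (24.9%), MA/MyJ against SM/J (19.8%), NZW/LacJ against SM/J (22.3%) and NZW/LacJ against WSB/EiJ (35.3%), and 1 for SM/J against WSB/EiJ (31.3%). Npc1 was highest in SM/J (11.01 ± 0.09, SD, n = 4) and WSB/EiJ (10.87 ± 0.18), then MA/MyJ (10.63 ± 0.14) and NZW/LacJ (10.46 ± 0.05). Its neighbours SM/J and WSB/EiJ (adjusted p 0.232) and MA/MyJ and NZW/LacJ (0.126) were not shown to differ, while WSB/EiJ exceeded MA/MyJ (by 0.23 log2 units, adjusted p 0.0445, limma). The strain with the lowest vehicle level of Npc1, NZW/LacJ, had the largest rise, and both values draw on the same vehicle animals.

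Lipa was highest in MA/MyJ (13.38 ± 0.19, SD, n = 4) and SM/J (13.28 ± 0.03), then NZW/LacJ (12.89 ± 0.04) and WSB/EiJ (12.59 ± 0.33). MA/MyJ exceeded WSB/EiJ by 0.79 ± 0.15, a 1.73-fold difference (limma adjusted p 0.000389), and SM/J exceeded it by 0.69 ± 0.15 (0.00151). The neighbours in this order did not pass (MA/MyJ against SM/J 0.665, SM/J against NZW/LacJ 0.0592, NZW/LacJ against WSB/EiJ 0.16). Npc2 ran from MA/MyJ (12.33 ± 0.10) through NZW/LacJ (12.22 ± 0.04) and SM/J (12.03 ± 0.13) to WSB/EiJ (11.86 ± 0.08), with MA/MyJ above WSB/EiJ by 0.47 ± 0.10 (0.0013) and no neighbours that passed. The mean of all Npc2 probe sets did not pass for vehicle level (F test, adjusted p 0.231). It gives equal weight to sets of mean 7.32 and 4.47, the last of them below the filter.

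Psap was lowest in NZW/LacJ (13.41 ± 0.05, SD, n = 4), beside 13.54 ± 0.04 in WSB/EiJ, 13.58 ± 0.04 in MA/MyJ and 13.63 ± 0.03 in SM/J. NZW/LacJ minus SM/J was -0.21 (limma adjusted p 0.0082) and MA/MyJ minus NZW/LacJ was 0.16 (0.04). The Psap F test was lost without the second NZW/LacJ vehicle animal (adjusted p 0.0788). Asah1 was 0.33 higher in MA/MyJ than in WSB/EiJ (0.0255), and its F test (0.0454) was lost without any 1 of 18 arrays. Smpd1 (0.166), Pla2g15 (0.573) and Gm2a (0.227) did not pass. Without the third WSB/EiJ vehicle animal, which held the low value of 10.78, Gm2a passed (0.00882).

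**Figure D4:**
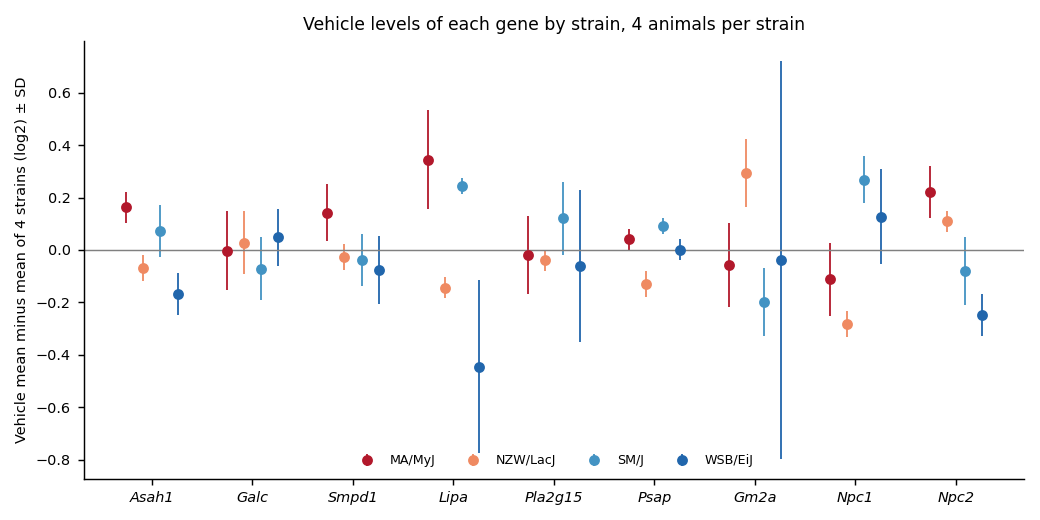
The mean vehicle level of each of the 9 genes in each strain (vertical axis, log2 units, centred for each gene on the mean of its strains), with the SD of 4 animals. Lipa spans from MA/MyJ at 13.38 to WSB/EiJ at 12.59, and the wide bar of Gm2a in WSB/EiJ (SD 0.76) holds the vehicle animal at 10.78.

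Treated animals differed among themselves. In SM/J the first treated animal was the highest of its group for 5 of the 8 genes (Asah1, Smpd1, Lipa, Psap and Npc2) and the fourth was the lowest for 5 (Asah1, Smpd1, Lipa, Gm2a and Npc2). In NZW/LacJ the fourth treated animal was highest for 4 and the second lowest for 4. In MA/MyJ no treated animal was highest for more than 3.

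Other genes tied to the same compartment gave a reference. A first list was drawn up for further hydrolases of glycolipids and sphingolipids. It also held Naaa, which cuts N-acylethanolamines, and Sumf1, a sulfatase activator of the endoplasmic reticulum and not a hydrolase. Of its 7 tested genes, out of 10 listed, 7 rose on average (13.3% of all genes did), with a median of 0.38. The largest rises were those of Hexa, the alpha subunit of beta-hexosaminidase (0.85), Arsa, which desulfates sulfatide (0.80), and Neu1, a sialidase (0.48). Of 7 phospholipid and acyl-chain enzymes 3 rose, namely Pld4 (0.46), Pld3 (0.44) and the palmitoyl-protein thioesterase Ppt1 (0.23), and 4 did not pass. Of 9 genes of lipid export and the lysosomal membrane, 4 rose and 1 fell. They were Tmem97, known to bind Npc1 (0.55), Cln3 (0.38), the calcium channel Mcoln1 (0.34) and, named after its value was seen, the membrane glycoprotein Lamp1 (0.29), while the oxysterol-binding Osbp, named in the same way, fell by 0.13. When the array that stood apart was left out, 7 genes of the first list again rose. Plbd2 was added to the enzymes (0.17, limma adjusted p 0.0046) and Scarb2 fell among the membrane genes (-0.11, 0.0186). Of 4 factors of the TFEB family 0 passed on average in limma, and 0 at an unadjusted p under 0.05. The largest average values were 0.25 for Tfec (adjusted p 0.211) and -0.06 for Tfe3 (0.671). Without the array that stood apart, Tfeb rose (0.25, limma adjusted p 0.0243) and Mitf fell (-0.56, 0.0101) in WSB/EiJ. There 13.8% of all genes rose and 18.6% fell. In the vacuolation contrast 1 factor then had a larger effect in the coded pair (18% of all genes).

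The group means of some other genes ran close to those of the 6 that rose. By the root mean square difference over the 8 group means, each gene centred on its own mean, the nearest to Npc2 were Cystm1 (0.103) and the lysosomal protease Lgmn (0.105), and the nearest to Asah1 were Vps29 (0.076) and Utrn (0.095). Nearest to Npc1 were Aifm2 (0.096) and Dlg1 (0.101), to Pla2g15 Ugp2 (0.051) and Cnp (0.071), to Smpd1 B3gnt2 (0.051) and Huwe1 (0.052), and to Psap Cox7a2 (0.043) and Tdp1 (0.045). These distances describe 8 points each and carry no test.

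Macrophage markers moved with the drug in the same livers. Of 12 markers of Kupffer cells 10 rose on average (13.3% of all genes did), led by Cd5l (1.12), Timd4 (1.09) and Vsig4 (0.99), and of 10 tested markers of recruited or lipid-laden macrophages 8 rose, led by the lysosomal glycoprotein Cd68 (1.99), Gpnmb (1.96) and Lgals3 (1.91). The mean of the recruited list ran from 7.15 to 7.29 in MA/MyJ vehicle animals and from 8.73 to 9.68 in treated ones, from 7.38 to 7.6 against 8.1 to 9.57 in NZW/LacJ, from 7.33 to 7.64 against 7.91 to 8.25 in SM/J and from 7.13 to 7.37 against 7.47 to 8.38 in WSB/EiJ. The mean of the Kupffer list ran from 8.53 to 8.82 against 9.13 to 10.11 in MA/MyJ, 9.02 to 9.55 against 8.94 to 10.72 in NZW/LacJ, 9.13 to 9.57 against 9.11 to 10.01 in SM/J and 7.62 to 8.29 against 8.96 to 9.35 in WSB/EiJ. Both the 9.35 of the Kupffer list and the 7.47 of the recruited list in WSB/EiJ came from the array that stood apart. The other treated WSB/EiJ animals were at 9.13 and 8.96 for the Kupffer list and at 8.1 and 8.38 for the recruited list. Of the 12 Kupffer markers 7 rose in MA/MyJ (3.17% of all genes did), 2 in NZW/LacJ (15.1%), 8 in WSB/EiJ (6.91%) and 0 in SM/J (1.6%, and 1 marker at an unadjusted p under 0.05). Of the 10 recruited markers 7 rose in MA/MyJ, 7 in NZW/LacJ, 2 in WSB/EiJ and 1 in SM/J. With the third treated WSB/EiJ array left out the Kupffer counts were 8 in MA/MyJ, 5 in NZW/LacJ, 9 in WSB/EiJ and 0 in SM/J, and the recruited count in WSB/EiJ was 3. In the vacuolation contrast 5 of the 10 recruited markers and 0 of the 12 Kupffer markers had a larger effect in the coded pair, where 12.5% of all genes did (4 and 0 with the array left out, where 18% did). No marker was at 0, and Trem2 (0.04) and Ccr2 (-0.09) of the recruited list did not pass. With the third treated WSB/EiJ array left out, 10 Kupffer and 8 recruited markers again rose on average. The part of these markers in the values of Asah1, Npc2 and the other genes was not tested.

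Hepatocyte markers, which check the labelled tissue, lay between 13.91 and 14.22 as a mean over 10 genes on every array, and 1 of the 10, Ahsg, rose on average (0.09), or 2 with Cps1 added (0.10) without the array that stood apart. Of 8 sinusoidal endothelial markers 6 fell on average (8.92% of all genes fell). They were led by Gpr182, which fell by 0.66, Oit3, which fell by 0.50, and Kdr, which fell by 0.45. Within single strains 2 fell in WSB/EiJ (12.4% of all genes), 1 in NZW/LacJ (6.4%) and 0 in MA/MyJ (0.978%) or SM/J (0.993%). Stab2 rose in MA/MyJ (0.6, limma adjusted p 0.032) and NZW/LacJ (0.57, 0.0112), and Lyve1 rose in WSB/EiJ (1.68, 0.0214). There 3.17%, 15.1% and 6.91% of all genes rose. Without the third treated WSB/EiJ array 6 again fell on average and Stab2 rose (0.23, limma adjusted p 0.039). Of the tested markers of bile duct cells (3), stellate cells (5), lymphocytes (3) and neutrophils (2), 0 passed in limma, and 0 at an unadjusted p under 0.05. Their largest values were 0.10 for Epcam and -0.02 for Sox9, 0.15 for Rgs5 and -0.13 for Dcn, 0.11 for Cd3e and -0.07 for Cd79a, and 0.07 for Csf3r beside 0 for S100a9.

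**Figure D5:**
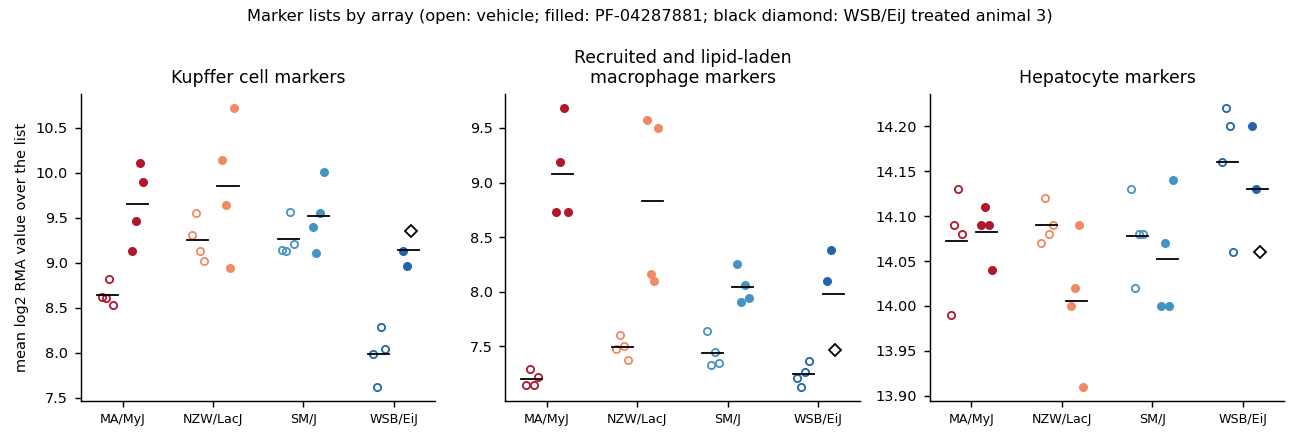
The mean log2 value over 12 Kupffer cell markers, 10 markers of recruited and lipid-laden macrophages and 10 hepatocyte markers (vertical axes) on each array, by strain, with open points for vehicle, filled points for treated animals, a black diamond for the third treated WSB/EiJ animal and bars for group means. The recruited list lies higher in all treated animals than in the vehicle animals of their strain, and the hepatocyte list stays between 13.91 and 14.22.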

How the data were processed

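Whole-liver RNA of 31 animals was read on Affymetrix arrays. The deposited values are log2 intensities that the authors made by RMA in Affymetrix Power Tools, per the submitters' processing notes, with versions not given in the sources used here. Values ran from 2.71 to 14.9 and array medians from 6.43 to 6.54. The number of arrays limits the precision, and no count or depth exists for such data. Of 44721 probe sets, 34728 carried 1 gene symbol, 872 several and 9121 none in the platform annotation, and 34525 were matched by Entrez number. Of 18147 genes, 12890 passed the filter on low values.

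Groups came from the sample titles. limma 3.58.1 (R 4.3.3, with version 1.17.8 of the data.table package) fitted 1 mean for each of the 8 groups to all 31 arrays, with eBayes (prior degrees of freedom 3.17, residual 23). Tests were two-sided, intervals cover 95%, and p-values were adjusted by Benjamini-Hochberg over all genes, or over all genes and all 6 pairs of strains together. The strain-by-treatment F test has 3 terms. Promoter windows were scanned in Python 3.11.15 with pandas 2.3.3, and figures used matplotlib 3.10.9. The fit was tested on simulated data.

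The members, the gene lists and the tests were chosen with earlier results of these data known. The rule for named genes covers all 9 members, of which Galc was not tested, and for pairs of strains the text gives those that passed and examples. Each further list gave its 3 largest called average effects, or its 2 largest values where none was called, and each member that rose gave the 2 genes of most similar group means. The lists were drawn up for lysosomal glycolipid and sphingolipid hydrolases, phospholipid and acyl-chain enzymes, lipid export and membrane genes, TFEB-family factors and markers of 8 cell classes. Listed genes without a usable probe set were not analysed here.

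Alternatives left out each array in turn, dropped the filter, averaged the probe sets of a gene, centred or quantile-normalized the arrays, weighted the arrays, used a trended robust prior, added the animal number as a replicate block or fitted only the groups compared. The average of the probe sets of a gene took in those below the filter. Added after seeing the data were the omission of a pair of WSB/EiJ arrays, the average over 3 strains and each further probe set of a member. Animal numbers were not used to pair the samples in the main fit.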

Additional observations from a re-analysis of the deposited data

Results flagged for a closer look

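Among 63 groups of 4 animals examined for a value far from the rest, Psap in treated SM/J animals gave 1. Animal 1 was at 13.76 and the others at 13.67, 13.68 and 13.68, so that the gap to the nearest was 0.94 of the range. The limit for being listed here is passed by chance in about 1 group in 20.

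For Pla2g15 the strains differed in the drug effect by the limma F test (adjusted p 0.0116), by the contrast for vacuolation (0.00481) and by that for necrosis (0.0239). For Npc1 the same tests gave 0.000866, 0.0186 and 0.0109. For Psap the contrast for vacuolation gave 0.021.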

How the results depend on the processing

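Leaving out 1 array at a time kept the direction and the side of the threshold in 2142 of the tests of single genes, ended a call in 53, added 9 and turned the sign in 28. The other alternatives kept 564, ended 20, added 23 and turned 17, and the cause was not tested. The 6 genes that rose on average were called in each fit that left out 1 array.

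Leaving out 1 array, the genes of the set called ran from 0 to 4 in MA/MyJ, 0 to 3 in SM/J, 1 to 5 in WSB/EiJ, 1 to 3 for necrosis, 3 to 10 over the drug pairs and 3 to 5 for vehicle levels. Over all genes the ranges, with the omission of the WSB/EiJ pair included, were 279 to 1180 in MA/MyJ, 103 to 759 in SM/J and 1282 to 4180 in WSB/EiJ (3993 without the pair). They were 2527 to 4306 for the average, 1824 to 3464 for vacuolation, 1463 to 2980 for necrosis, 2115 to 4275 for the F test and 4747 to 11628 for the drug pairs.

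Array weights called more: 5 of the set in MA/MyJ, 6 in WSB/EiJ (3 of them lower), 5 for vacuolation, 6 by the F test, 16 over the drug pairs, 8 for vehicle levels and 26 over vehicle pairs. Over all genes they called 4209 in WSB/EiJ, 2765 in SM/J, 2607 in MA/MyJ, 4418 in NZW/LacJ, 5280 on average, 4432 for vacuolation, 3634 for necrosis, 6099 by the F test, 16869 over the drug pairs and 31730 over vehicle pairs. Only the groups compared in the fit, with fewer arrays, gave 0 of the set in SM/J and 0 in WSB/EiJ. Over all genes it gave 1063 in MA/MyJ, 484 in SM/J and 4 in WSB/EiJ.

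Signs turned only for values that passed in neither fit. With the mean of probe sets the values were -0.09 (Smpd1, necrosis), 0.37, 0.12 and -0.18 (Lipa in SM/J, WSB/EiJ and necrosis), -0.04 (Pla2g15, SM/J), -0.1 and -0.16 (Gm2a, NZW/LacJ and vacuolation) and 0.09 (Npc2, vacuolation). Array weights gave -0.09 (Smpd1, necrosis), 0.03 and -0.01 (Lipa, SM/J and average), 0.02 (Psap, WSB/EiJ) and 0.01 (Gm2a, SM/J), quantile normalization -0.04 (Smpd1, necrosis), centring 0.01 (Npc2, vacuolation), and omission of the WSB/EiJ pair -0.03 (Smpd1, necrosis) and 0 (Lipa, average). Without single arrays the ranges were -0.04 to 0.06 (Smpd1, necrosis), -0.1 to 0.03 and -0.03 to 0.07 (Lipa, SM/J and average), -0.14 to 0.02, -0.46 to 0.11, -0.13 to 0.01 and -0.02 to 0.27 (Gm2a in SM/J, WSB/EiJ, average and vacuolation) and -0.08 to 0.03 (Npc2, vacuolation).

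Animal numbers were not used to pair the samples in the main fit. Each of 15 pairs joined a vehicle and a treated array of the same strain and number. The correlation of their deviations from the group means ran from -0.52 to 0.41, above 0.1 in 4. Both ends were in WSB/EiJ, and the -0.52 involved the array that stood apart. These values cannot settle whether the numbers mark pairs. The replicate block gave 3 of the set and 2252 of all genes in WSB/EiJ, 3 and 286 in SM/J, 5 and 2638 in NZW/LacJ and 3 and 494 in MA/MyJ. It gave 6 and 2757 on average, 3 and 2053 for vacuolation, 2 and 1828 for necrosis, 2 and 2329 by the F test, 4 and 5441 over the drug pairs, 4 and 7077 for vehicle levels (Asah1 at 0.0581) and 12 and 20108 over vehicle pairs.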
